A study of Gallus gallus with 16 samples.

Results

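Of 24881 genes listed for sorted chick neural crest cells, 9 formed the set described here, the genes gained with sox10 or tfap2b targeting. A gene belonged to the set when it was autosomal and its lowest level in the 9 libraries of the sox10, tfap2b and double groups was about 2-fold or more above its highest level in the 7 libraries of the sox3, msx1 and control groups. The members were chosen by measured levels in CPM (a count divided by the library's total and multiplied by 1000000). The score is the log2 of that gap after adding 0.5 CPM to both sides, with a minimum of 1. The control mean also had to lie within 2-fold of the mean of the sox3 and msx1 libraries. The rule allowed up to 200 genes by score, and 9 of 17717 autosomal genes passed it. All 16 libraries chose the set, so its rise over the sox3, msx1 and control groups is a description and is not tested.

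The cells were Citrine-positive neural crest cells of wild-type chick (Gallus gallus) embryos at Hamburger and Hamilton stage HH18, sorted after electroporation. Every group, the control included, received pCAG Cas9-2A-Citrine, a plasmid that carries Cas9 and the fluorescent protein used for sorting. The sox10 group (3 libraries) also received pcU6 plasmids for 2 sox10 guides, the tfap2b group (3 libraries) plasmids for 2 tfap2b guides, and the double group (3 libraries) both tfap2b guides with the first sox10 guide alone. The sox3 group (2 libraries) received 2 sox3 guides, the msx1 group (3 libraries) a single msx1 construct, and the Cas9 control (2 libraries) no guide. The labels do not tie replicate libraries to separate embryos or electroporations. A p-value here therefore reflects spread among libraries alone, which may be technical. Electroporated tissue is commonly a mosaic, and the share of cells edited at each target is not stated in the labels.

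SOX10 is an SRY-related transcription factor that keeps neural crest cells multipotent and later directs glial and enteric progenitors. TFAP2B belongs to the AP-2 family of transcription factors, which act early in neural crest formation and in the sympathetic lineage. SOX3, a SoxB1 factor of neural progenitors, and MSX1, a homeobox factor of the neural plate border, were targeted in the other guide groups. The gene IDs of the count table are not paired with names: the reference table used here matched 0 of them. No name or role is therefore given to any of the 9 genes, and each is identified by its galGal5 position and exon structure. The targeted genes and marker genes of the tissue could not be looked up for the same reason.

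Total counts were 9112556 to 16951686 in the 9 libraries of the sox10, tfap2b and double groups and 5721022 to 24929531 in the other 7. The same split of libraries was present in whole-library measures. At an equal depth of 5721022 counts, 12607 to 13813 genes had a count in the 9 libraries, against 14476 to 14923 in the other 7. The 100 most abundant genes took 15.9% to 19.9% of counts in the 9, against 12.0% to 16.5% in the other 7. Scaling factors by the trimmed mean of M values (TMM), which correct for such differences in composition, were 0.759 to 0.979 in the 9 and 1.11 to 1.26 in the other 7. TMM scaling therefore adds 0.42 (log2) to every gene's difference between the 2 sides. The labels do not say which libraries were made or sequenced together. Such a batch and the split into 2 sides cannot be told apart, and the part of library composition in the results was not tested.

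The gained set was small beside its mirror image. A score above 0, meaning that all 9 libraries lay above all other 7, was reached by 1088 of 16717 autosomal genes with a count (6.51%), and the reverse by 3110 (18.6%). At a score of 0.5 the numbers were 394 gained and 1873 in the opposite direction, at 0.8 they were 59 and 1307, and at 1 they were 9 (0.0538%) and 1016 (6.08%). This imbalance depended on the scaling. With CPM of the TMM-scaled library size, 87 autosomal genes scored 1 or more and 628 did so in the opposite direction. The 2-fold condition left 86 of the 87, and all 9 genes described here were among those 86.

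**Figure D1:**
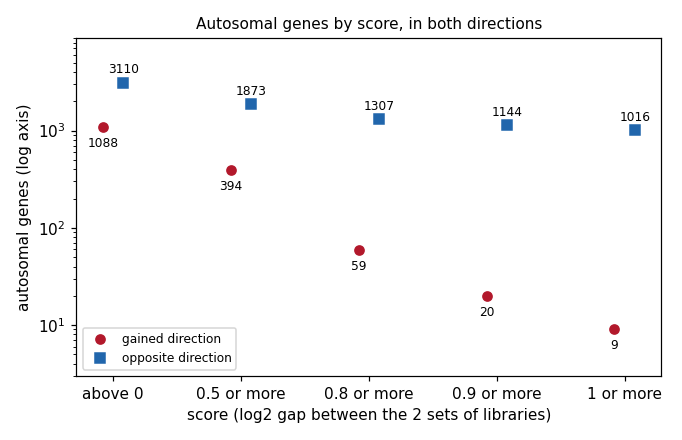
Number of autosomal genes (log axis) whose score reached each value on the horizontal axis, for genes higher in the sox10, tfap2b and double libraries (circles) and for genes lower there (squares). The gained direction thins out from 1088 genes to 9, while the opposite direction still holds 1016 at a score of 1.

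The highest score, 1.66, belonged to ENSGALG00000025786, a gene with 1 exon of 312 bp on the minus strand of chromosome 1 (48165722 to 48166033). Its levels were 21.5, 22.1 and 22.2 CPM in the sox10 libraries, 13.4, 12.7 and 10.3 CPM in the tfap2b libraries and 12.8, 15.5 and 9.09 CPM in the double libraries. They were 1.98 and 2.07 CPM with sox3 targeting, 1.75, 1.30 and 1.60 CPM with msx1 targeting and 2.53 and 2.39 CPM in the control. The 3 sox10 libraries lay close together and above all others, and the tfap2b and double libraries overlapped. It was the least abundant of the 9 genes, with 10 counts in its poorest library and 228 in its richest. Its mean over the 9 libraries was 7.97 times that over the other 7, the widest ratio in the set.

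Next came ENSGALG00000034509, with 8 exons and 2305 bp of exonic sequence on the minus strand of chromosome 20 (1437971 to 1455271), at a score of 1.16. Its levels were 124, 122 and 168 CPM in the sox10 libraries, 72.1, 128 and 82.9 CPM in the tfap2b libraries and 75.1, 74.6 and 86.1 CPM in the double libraries. Values with sox3 targeting were 31.9 and 30.6 CPM, those with msx1 targeting 26.6, 31.0 and 20.9 CPM and those of the control 23.0 and 22.9 CPM. The second tfap2b library stood with the sox10 libraries, while the other two stood with the double libraries. Its mean in the 9 libraries was 3.88 times that in the other 7.

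The most abundant member by CPM had 11 exons and 1116 bp of exonic sequence on the minus strand of chromosome 5 (55405952 to 55414520). It held 922, 801 and 889 CPM in the sox10 libraries, 672, 984 and 763 CPM in the tfap2b libraries and 686, 653 and 745 CPM in the double libraries. With sox3 targeting it held 318 and 305 CPM, with msx1 targeting 317, 280.2 and 289 CPM, and without a guide 297 and 285 CPM. The ratio of means was 2.65, and the 7 libraries with low levels differed among themselves by no more than 1.13-fold. Per kilobase of exon it stood at 708 CPM in the 9 libraries and 268 CPM in the other 7. Those levels were above 99.3% and 98.5% of autosomal genes with a count.

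The second most abundant member by mean CPM over the 9 high libraries was a gene of 4 exons and 1131 bp on the plus strand of chromosome 19 (4824162 to 4826904). It had 379, 336 and 533 CPM with sox10 targeting, 281, 397 and 257 CPM with tfap2b targeting and 226, 244 and 289 CPM with double targeting. Its levels were 111 and 113 CPM with sox3 targeting, 102, 107 and 108 CPM with msx1 targeting and 109 and 104 CPM in the control. The 7 low libraries spanned 1.10-fold, the narrowest range in the set, and the 9 high libraries spanned 2.36-fold.

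The longest member had 45 exons and 10713 bp of exonic sequence on the plus strand of chromosome 18 (4968055 to 5062966). Its levels were 278, 201 and 256 CPM in the sox10 libraries, 129.7, 232 and 185 CPM in the tfap2b libraries and 195, 153 and 252 CPM in the double libraries. With sox3 targeting they were 61.2 and 49.2 CPM, with msx1 targeting 35.1, 49.8 and 58.1 CPM, and without a guide 39.2 and 41.4 CPM. The sox10, tfap2b and double groups overlapped one another for this gene, and so did the sox3 and msx1 groups. Its span covers 9 other listed genes, 4 of them on the same strand, none of which shares exonic bases with it. Of these 9 neighbours, 1 was also higher in all 9 libraries than in the other 7, and 1 was lower in all 9. Over autosomal genes with a count these shares were 6.51% and 18.6%.

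The other 4 members lay between those levels. A gene of 4 exons and 640 bp on chromosome 1 (24348924 to 24354638, minus strand) ranged over 227 to 440.1 CPM (median 296) in the 9 libraries and over 81.6 to 106 CPM (median 98.1) in the other 7. A second chromosome 20 gene (12543700 to 12546229, minus strand, 5 exons, 1812 bp) ranged over 189 to 440.2 CPM (median 247) in the 9 and over 67.4 to 88.2 CPM (median 79.3) in the other 7. A chromosome 2 gene of 3 exons and 1431 bp (132606889 to 132612643, plus strand) ranged over 248 to 468 CPM (median 291) in the 9 and over 93.4 to 121 CPM (median 111) in the other 7. The chromosome 2 gene shares 123 exonic bases with a gene on the opposite strand, and the labels do not say whether reads were assigned by strand, so its values are uncertain. That neighbour averaged 144 CPM in the 9 libraries and 117 CPM in the other 7, and its libraries overlapped between the 2 sides.

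The last member was a second gene of chromosome 19, with 5 exons and 1470 bp on the minus strand (3481273 to 3484813). It had 262, 241 and 226 CPM in the sox10 libraries, 189, 229 and 182 CPM in the tfap2b libraries and 185, 189 and 203 CPM in the double libraries. With sox3 targeting it had 72.7 and 90.6 CPM, with msx1 targeting 90.5, 85.4 and 89.4 CPM, and without a guide 89.2 and 89.6 CPM. Its lowest high library stood at 182 CPM and its highest low library at 90.6 CPM, which put its score at the minimum of 1. The first gene outside (chromosome 2, 137017090 to 137045338, 8 exons) had a score of 0.99, with 118 CPM as its lowest and 59.3 CPM as its highest value on the 2 sides. The next, on chromosome 10 (10432652 to 10453886, 13 exons), scored 0.96, from 283 and 145 CPM.

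**Figure D2:**
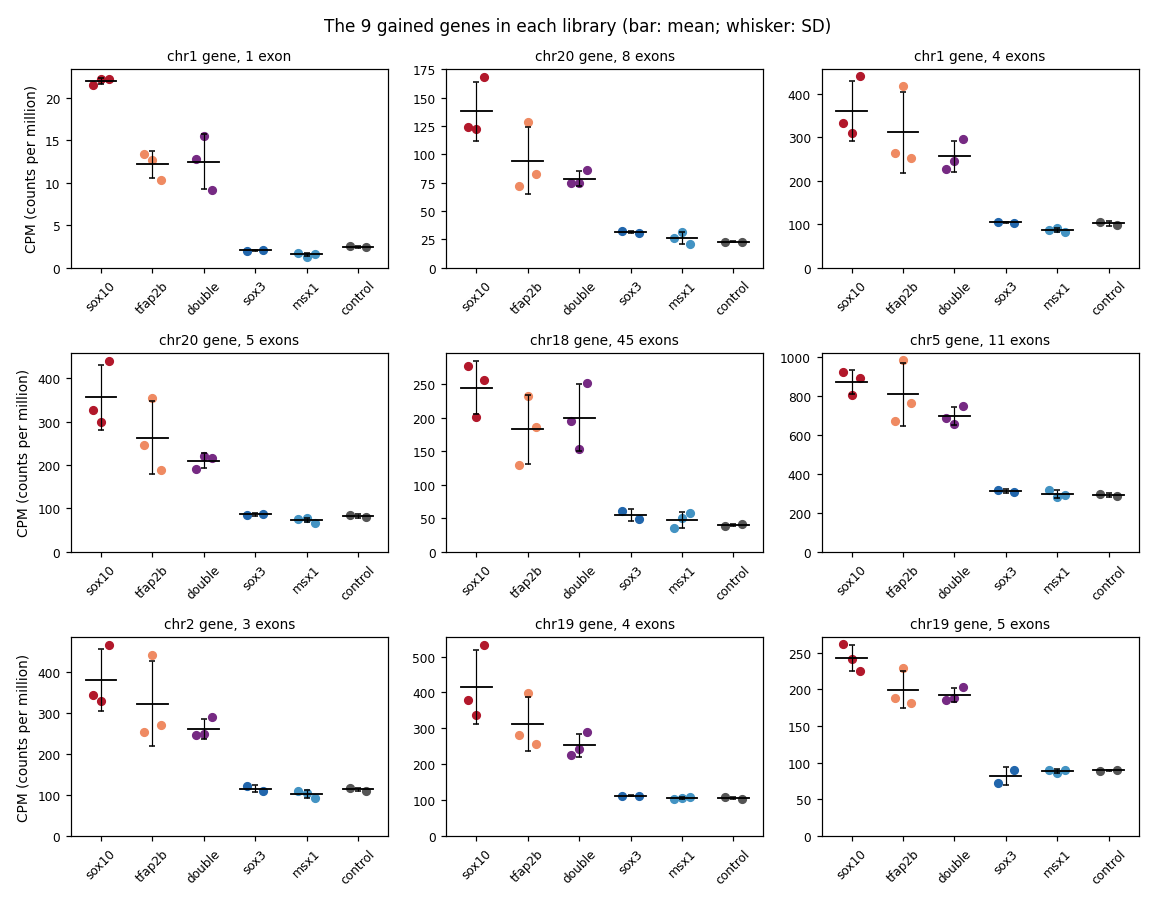
Levels of the 9 genes in CPM in each of the 16 libraries, with 1 point per library, a bar for the group mean and a whisker for the SD (n = 3, or 2 in the sox3 and control groups). In every panel the sox10, tfap2b and double libraries lie above the sox3, msx1 and control libraries, and the sox10 mean is the highest.

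The sox10 group had the highest mean for all 9 genes, on the CPM scale and on the TMM scale. The rule leaves only the sox10, tfap2b and double groups able to be highest, and among 385 autosomal genes with a score of 0.5 to 1 the sox10 group was highest for 322. Its means ran from 2.72 to 8.91 times the control. Those of the tfap2b group ran from 2.24 to 4.93 times and those of the double group from 2.15 to 5.06 times the control. These 3 comparisons share the 2 control libraries, and the rule fixes their direction. In order of group means on the CPM scale the tfap2b group came second for 7 genes and the double group for 2. These 2 were the single-exon gene of chromosome 1 and the 45-exon gene of chromosome 18. In the fit with TMM the single-exon gene was slightly lower with double than with tfap2b targeting (log2 fold change -0.07). The sox10 libraries overlapped those of the group next in order for 8 of the 9 genes.

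On the low side the order of the groups varied from gene to gene. The sox3 mean was 0.824 to 1.37 times the control mean and the msx1 mean 0.630 to 1.18 times. The highest of the 7 was a sox3 library for 8 of the 9 genes, which set the upper edge that the rule used. The exception was the single-exon gene, which was highest in the first control library. For the chromosome 5 gene the lead over the first msx1 library was narrow (317.9 against 317.3 CPM). So was that for the 5-exon gene of chromosome 19 (90.59 against 90.54 CPM), where the first sox3 library was the lowest of the 7 (72.7 CPM). The median ratio between the highest and the lowest library was 2.14 among the 9 high libraries and 1.30 among the 7 low ones. Over the 7857 autosomal genes at least as abundant on average as the lowest member, these medians were 3.06 and 1.76. This is not a like comparison. The single-exon gene, which sets that floor, averaged 15.5 CPM in the 9 libraries, and the next lowest member 104 CPM. The rule also bounds the lowest of the 9 libraries and the highest of the 7.

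Within some groups the same library was the highest for many members. How often that library was the highest over all genes was not computed. The sums below weigh the chromosome 5 gene most. The second tfap2b library was the highest of its group for 8 of the 9 genes, with a summed level of 3199 CPM against 2121 and 2194 CPM in the other two. The third sox10 library was the highest of its group for 6 genes (summed 3443 CPM, against 2992 and 2664 CPM) and the third double library for 7 (2388 CPM, against 2044 and 2046 CPM). In the 7 low libraries the sum stayed between 809 and 908 CPM. Genes with a count at equal depth numbered 13595 in the second tfap2b library, against 13813 and 13255 in the first and the third. In other measures it was the extreme of its group: its 100 most abundant genes took 17.8% of counts, against 15.9% and 17.5%, and its TMM factor was 0.805, against 0.974 and 0.912. Its counts were also the farthest from those of the other two, with a chi-square per degree of freedom of 119 and 95.6, against 26.3 between the first and the third. The part of these differences in the members' levels was not tested.

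**Figure D3:**
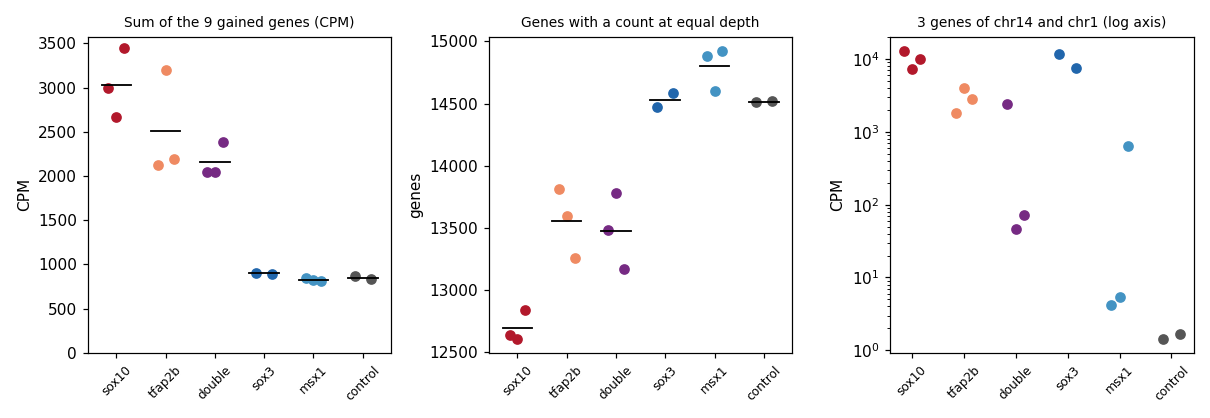
Per library, the summed CPM of the 9 genes, the number of genes with a count at an equal depth of 5721022, and the summed CPM (log axis) of 3 genes on chromosomes 14 and 1 that vary widely among libraries. An earlier account of the series places these 3 genes in globin regions. Bars in the 2 left panels are group means. The rule fixes the split of this sum between the 2 sides, and fewer genes were detected in each of the 9 high libraries. Within groups the relation varied. The library with the highest sum had the most genes detected in the sox10 group and the fewest in the double group. The 3 genes are as abundant in the sox3 libraries as in the sox10 libraries, while the rule required a low sum of the 9 genes with sox3 targeting. The part of either measure in the members' levels was not tested.

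The contrasts within each side were tested with edgeR's quasi-likelihood test over 14081 genes, with Benjamini-Hochberg adjustment and TMM scaling. All 16 libraries were in 1 fit, so each SE and p-value also draws on the spread within groups outside its contrast. Across the members the median ratio of highest to lowest library was 1.30 on the low side and 2.14 on the high side. This ratio spans all libraries of a side, so it also holds the differences between groups. The rule did not set the differences between groups within a side, but it chose the members by values of the same libraries. It bounds the lowest library of the high side and the highest of the low side. The members' counts below are therefore not independent of their choice, and the shares over all genes are not a like comparison. All 9 members passed the filter on low counts. With double targeting, every member was below its level with sox10 targeting alone, and 7 of 9 passed the threshold of 0.05 as lower, where 6.95% of all genes tested did. The question this contrast asks is whether adding the tfap2b guides, with 1 sox10 guide in place of 2, changed the levels of these transcripts relative to sox10 targeting. The members' median log2 fold change was -0.81, beside 0.03 over all genes tested. The double libraries lay wholly below the sox10 libraries for 8 of 9 members, against 7.53% of autosomal genes with a count.

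The largest differences among those past the threshold were on chromosome 20. The 8-exon gene averaged 78.6 ± 6.54 CPM with double targeting and 138 ± 26.1 CPM with sox10 targeting (SD, n = 3 each), a fitted log2 fold change of -1.08 (SE 0.27; edgeR adjusted p = 0.0195). The 5-exon gene averaged 209.7 ± 17.1 CPM with double targeting and 356 ± 74.4 CPM with sox10 targeting (SD, n = 3 each), at -1.04 (SE 0.24; edgeR adjusted p = 0.0146). The 4-exon gene of chromosome 19 stood at 253 ± 32.5 CPM with double targeting and 416 ± 104 CPM with sox10 targeting (SD, n = 3 each), at -0.99 (SE 0.23; edgeR adjusted p = 0.0141). In each of these the highest double library was below the lowest sox10 library. The other 4 that passed were the chromosome 2 gene, the 4-exon gene of chromosome 1, the 5-exon gene of chromosome 19 and the chromosome 5 gene, at log2 fold changes of -0.81, -0.76, -0.60 and -0.59 (edgeR adjusted p 0.0333 to 0.0441).

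For 2 members this test was not passed. With RLE size factors and with DESeq2, 8 members passed, the 7 above and the single-exon gene (DESeq2 adjusted p = 0.000546). The single-exon gene averaged 12.5 ± 3.23 CPM with double targeting and 22.0 ± 0.387 CPM with sox10 targeting (SD, n = 3 each), with a log2 fold change as large as that of the first chromosome 20 gene but a wider error (-1.08, SE 0.37; edgeR adjusted p = 0.0658). The 45-exon gene averaged 200.1 ± 49.9 CPM with double targeting and 245 ± 39.4 CPM with sox10 targeting (SD, n = 3 each; -0.55, SE 0.27; edgeR adjusted p = 0.184), and its libraries overlapped.

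The count of 7 depended on single libraries and on the fit. It was 0 when only these 2 groups were fitted and 0 when close pairs of libraries in the sox3, msx1 and control groups were summed. In both fits the 3 genes named with their adjusted p also missed the threshold. Those fits called 178 of 11287 and 153 of 14608 genes lower, against 978 of 14081 in the main fit. Without the third sox10 library or the first double library the members' count was 0, without the second double library 1, without the third double library 3 and without the first sox10 library 4. In the same order, 476, 318, 328, 527 and 921 of all genes tested were lower. Scaling by column totals alone, an alternative chosen after seeing the data, gave 3, all among the 7. It moved the difference of every gene by 0.26 upward and gave 1272 genes higher and 452 lower in all, where TMM gave 866 and 978. All 9 fold changes were below 0 under both scalings.

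The pattern was shared by genes that gained less, which the same score chose from the same libraries, so they are no independent set. Of 385 autosomal genes with a score of 0.5 to 1, 56.6% were lower with double targeting than with sox10 targeting by the same test. Their median log2 fold change was -0.71, and 99.7% of them were below 0, against 48.4% of all genes tested. Among all 4241 genes averaging at least 50 CPM, 15.8% were lower, with a median of -0.11. The median exonic length of the 385 genes was 1426 bp, close to the 1431 bp of the 9 members. At equal depth 13477 ± 304 genes had a count in the double libraries and 12694 ± 125 in the sox10 libraries (SD, n = 3 each), and the part of this in the difference was not tested.

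Between double and tfap2b targeting no call was made for these 9 genes. None passed the threshold (edgeR's quasi-likelihood test, 0 also at an unadjusted p under 0.05, and 0 by DESeq2), where 0.0426% of all genes tested did in either direction. Log2 fold changes were -0.45 to 0.01, with a median of -0.39 and 8 of 9 below 0, or 7 of 9 by column totals alone. Without the second tfap2b library 6 of 9 were below 0. The largest was that of the 5-exon chromosome 20 gene, at 209.7 ± 17.1 CPM with double targeting and 263 ± 83.8 CPM with tfap2b targeting (SD, n = 3 each; -0.45, SE 0.24; edgeR adjusted p = 0.525). No member's double libraries lay wholly above or wholly below the tfap2b libraries, as they did for 7.62% and 5.3% of autosomal genes with a count. The SEs of these fold changes were 0.17 to 0.37. The split over all genes was 1 higher and 5 lower, or 0 and 2 by column totals alone.

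With sox10 targeting all 9 genes averaged above their level with tfap2b targeting, at log2 fold changes of 0.26 to 1.02 (median 0.57), and none passed the threshold by edgeR's quasi-likelihood test, where 2.57% of all genes tested did in either direction. At an unadjusted p under 0.05 there were 5, and the share over all genes at that level was not computed. DESeq2, which called 543 of 13946 genes higher and 734 lower, called 1 member, the single-exon gene. That gene averaged 22.0 ± 0.387 CPM with sox10 targeting and 12.1 ± 1.61 CPM with tfap2b targeting (SD, n = 3 each; log2 fold change 1.02, SE 0.37; edgeR adjusted p = 0.150). It was the only member whose sox10 libraries all lay above the tfap2b libraries, against 4.21% of autosomal genes with a count. The count of 0 depended on the second tfap2b library: without it, 7 members passed as higher with sox10 targeting, in a fit where 679 of all 14008 genes tested were higher and 625 lower. With all libraries, 92 genes were higher and 270 lower with TMM, and 60 and 407 by column totals alone.

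Within the low side, sox3 targeting and msx1 targeting were compared in the same fit. No member passed (edgeR's quasi-likelihood test, 0 at an unadjusted p under 0.05 and 0 by DESeq2), where 0.433% of all genes tested did in either direction. Log2 fold changes were -0.01 to 0.51 (median 0.32), with 8 of 9 above 0. For 4 genes both sox3 libraries lay above the 3 msx1 libraries, against 14.7% of autosomal genes with a count. The 4-exon gene of chromosome 1, for example, held 105 ± 1.27 CPM with sox3 targeting (SD, n = 2) and 86.4 ± 4.36 CPM with msx1 targeting (SD, n = 3), at a log2 fold change of 0.39 (SE 0.26; edgeR adjusted p = 0.841).

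**Figure D4:**
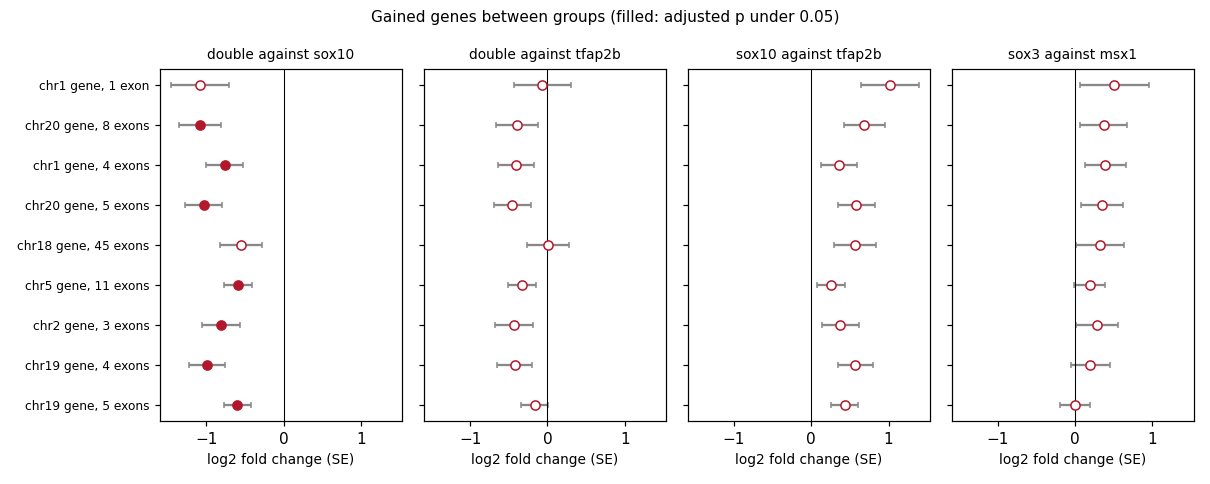
Log2 fold changes of the 9 genes (points, with SE whiskers) in the 4 contrasts within each side, from 1 edgeR fit of all 16 libraries. The same libraries chose the genes. Filled points have an adjusted p under 0.05. The 7 filled points are all in the contrast of double against sox10 targeting.

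A further 3 genes of chromosomes 14 and 1, listed with earlier results of these data known, varied widely among these libraries. An earlier account of the series places them in the globin regions of these chromosomes. No name was matched to these 3 genes here. Their sum was 7224 to 12913 CPM in the sox10 libraries, 1828 to 4019 CPM in the tfap2b libraries and 45.8 to 2446 CPM in the double libraries. With sox3 targeting it was 11693 and 7463 CPM, with msx1 targeting 4.20 to 637 CPM, and without a guide 1.45 and 1.67 CPM. Within the 9 high libraries the group means of this sum ran in the same order as those of the members' sum, sox10 above tfap2b above double. The second tfap2b library was the highest of its group in both, but the other groups did not match. In the sox10 group the first library was highest for the 3 genes (12913 CPM) and the third for the members (3443 CPM). In the double group the first library was highest for the 3 genes (2446 CPM) and lowest for the members (2044 CPM). The third double library, highest for the members (2388 CPM), held 71.4 CPM of the 3 genes. The sox3 libraries, in the range of the sox10 libraries for these 3 genes, held 908 and 893 CPM of the 9 members, against 868 and 834 CPM in the control, a low level that the rule required. The part of these 3 genes in the results was not tested. In bulk samples such as these, more cells of a type and more RNA per cell cannot be told apart.

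In position and structure the members were spread out. They lay on 6 chromosomes, 4 of them on macrochromosomes (1 to 5) and 5 on microchromosomes (11 and above), where 47.7% and 35.6% of autosomal genes with a count lie. The closest pair, both on chromosome 19, was 1339350 bp apart. Exonic length ran from 312 to 10713 bp with a median of 1431 bp, against a median of 1662 bp over autosomal genes with a count. The median number of exons was 5, against 7, and 1 member had a single exon. The median genomic span was 5715 bp, against 9236 bp. Levels per kilobase of exon averaged 4.45 to 268 CPM in the 7 low libraries, from the 45-exon gene to the chromosome 5 gene, and stood above 47.7% to 98.5% of autosomal genes with a count. All of the members had counts in both control libraries, down to a mean of 2.46 ± 0.0976 CPM (SD, n = 2) for the single-exon gene.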

How the data were processed

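RNA-seq libraries (SMART-Seq v4, paired reads of 40 bp, per the labels' protocols) gave whole-number read counts per gene, deposited unnormalized by the authors beside each gene's exons. The submitters' processing notes name galGal5, featureCounts, Subread 1.4.5, STAR 2.4.2a and DESeq2, with no role, and no source used here gives a strand setting. CPM was computed here from column totals. Contrasts were fitted with edgeR 4.0.16 under R 4.3.3, with all 16 libraries in 1 fit, group as the sole factor, TMM, default expression filter, robust quasi-likelihood, Benjamini-Hochberg over all genes tested. DESeq2 1.42.0 was an alternative. The fit was tested on simulated data, with changed genes drawn over a wide range of levels rather than at the members' levels. Across the contrasts, 11.9% to 19.4% of simulated 2-fold changes passed the threshold, and 53.7% to 77.6% of 4-fold changes. The members, the contrasts and the gene lists were chosen with earlier results of these data known. All 9 members are described. Full values went to the 2 with the highest score, the 2 most abundant, the last inside the list and, per contrast, the 2 largest fold changes past the threshold without overlap of libraries. The 45-exon gene and the further members were added after their values were seen. Only the 2 with the highest score are given by ID, since the files pair no ID with a name. Gene and marker lists by symbol were not used. Replicates of a group differed by more than sampling noise (lowest chi-square per degree of freedom 7.42, sox3). Columns of other samples numbered 0.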

Additional observations from a re-analysis of the deposited data

How the results depend on the processing

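The lower level of members with double than with sox10 targeting kept its direction in the median of all 13 alternatives, while the count of 7 did not hold. It was 3 with a replicate block, 3 with column totals without scaling, 0 when only the 2 groups compared were fitted, 0 with close pairs of libraries summed, and 0 to 7 with 1 library left out. RLE size factors and DESeq2 each gave 8 and no filter gave 5. The calls over all genes moved as well. Of all genes tested, 978 of 14081 were lower in the main fit, 1238 of 14081 with RLE size factors and 1868 of 14291 with DESeq2. They numbered 816 of 17790 with no filter, 652 of 14081 with a replicate block and 318 to 1353 with 1 library left out. For sox10 against tfap2b, DESeq2 gave 1 member and leaving out 1 library gave 0 to 7, against 0 otherwise. The counts of 0 for double against tfap2b and for sox3 against msx1 held in 13 and 12 alternatives. A count of 0 does not show equal levels. Of simulated 2-fold changes, 14.9% and 11.9% passed the threshold in these contrasts. The changed genes were drawn over a wide range of levels, so these shares do not hold for genes at the members' levels. The rule gave 86 genes on TMM-scaled CPM, 7 with a pseudocount of 1 CPM, 10 with 0.1 CPM, 8 with every library thinned to 5721022 counts and 9 to 12 with 1 library left out. The cause of these changes was not tested. Over 36 same-numbered pairs of different groups, deviations from group means correlated at -0.117 to 0.236. Of these pairs 3 exceeded 0.1, each with an msx1 library. Deviations within a group are not independent of one another, so these values do not settle whether replicate numbers pair the libraries. The smallest member count, 10 reads, limits the precision of the single-exon gene.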
